A study of Mus musculus with 26 samples.

Results

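CR Sca1lo and Sca1hi are fractions of EML cells that were separated by flow cytometry, and they were compared here across all genes on the array. The comparison rests on 6 of the 26 samples of the series, 3 labelled Sca1hi and 3 labelled CR Sca1lo, chosen by their labels alone. EML is a mouse haematopoietic line, derived from bone marrow cells that carry a dominant-negative retinoic acid receptor, which depends on stem cell factor and can give rise to erythroid, myeloid and lymphoid cells. They were grown with horse serum and medium conditioned with stem cell factor, with no erythropoietin (Epo) treatment given in the labels of these fractions, and the fractions were sorted by surface Sca1, CD34 and cKit. The sources used here give neither the gates nor what CR stands for. Beside them on the same slides lay 3 arrays of another fraction, EryCP, the one from which the study later derived Epo-differentiated cells. The 3 slides each carried 1 array of each fraction, so the difference was taken within slides. The labels do not say that the 3 samples of a fraction came from separate cultures or sorts, and the p-values measure only the spread between these samples, which may be technical.

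Sca1 is a small glycolipid-anchored surface protein, encoded by Ly6a, that marks haematopoietic stem cells and many early progenitors of the mouse and that interferons induce in lymphoid cells. Its level varies widely from cell to cell in cultures of multipotent lines. Multipotent cells of this kind transcribe genes of several blood lineages at a low level before they commit, a state called multilineage priming, and the balance between transcription factors such as Gata1, Spi1 (PU.1) and Cebpa is known to steer erythroid against myeloid fate.

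A level is given below as the log2 signal of a gene's probe relative to the 75th percentile of all probes on the same array, so that 0 is the level of a fairly abundant transcript, and levels are set side by side only for the same gene. A difference is the level in CR Sca1lo minus that in Sca1hi, with its standard error (SE) and the adjusted p of limma's moderated test (2-sided, Benjamini-Hochberg over all genes), and a gene was called where the adjusted p lay below 0.05. The fit held slide as a block. Where a gene named here lost its call when slide was not fitted, that adjusted p stands beside it.

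The test called 4696 of 26472 genes, or 17.7%, among which 2552 (9.64% of all genes) were higher in CR Sca1lo and 2144 (8.1%) were lower. The counts of every gene list below are to be read beside these shares. Most of these differences were small: the median size among called genes was 0.53 on the log2 scale, and 244 genes were higher and 459 lower by at least 2-fold. The large differences lay mostly on the lower side, with 7 genes higher and 26 lower by at least 8-fold. The groups did not overlap for 18.6% of all genes tested and for 75.8% of those called. When slide was not fitted the count of called genes was 950, with 320 higher and 630 lower. In a fit of the 6 arrays alone it was 3041. Without any 1 of the 6 arrays it ran from 2312 to 3133, and without slides 1 to 3 it was 573, 1306 and 1711, with 29.5%, 41.3% and 38.9% of the calls on the higher side in place of 54.3%. Of the 155 called genes among the 162 chosen for naming, 119 kept the call without each array in turn and 75 without each slide.

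The 75th percentile of the raw signal lay between 648.8 and 1034 on the 6 arrays, 80.5% to 92.2% of their probes were well above background, and 0 spots were saturated. When the genes were split by level into 3 sets of 8824, the dimmest set had a median difference of 0.10, and it was 0.29 on slide 3 against 0.00 and -0.01 on slides 1 and 2. Slide 3 joined a CR Sca1lo array with 87.1% of probes above background to a Sca1hi array with 81.4%. In the middle and the brightest set the medians were -0.01 and 0.03. Of the 739 calls among the dimmest genes 525 were higher in CR Sca1lo. The part of this shift in any single call was not tested.

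**Figure D1:**
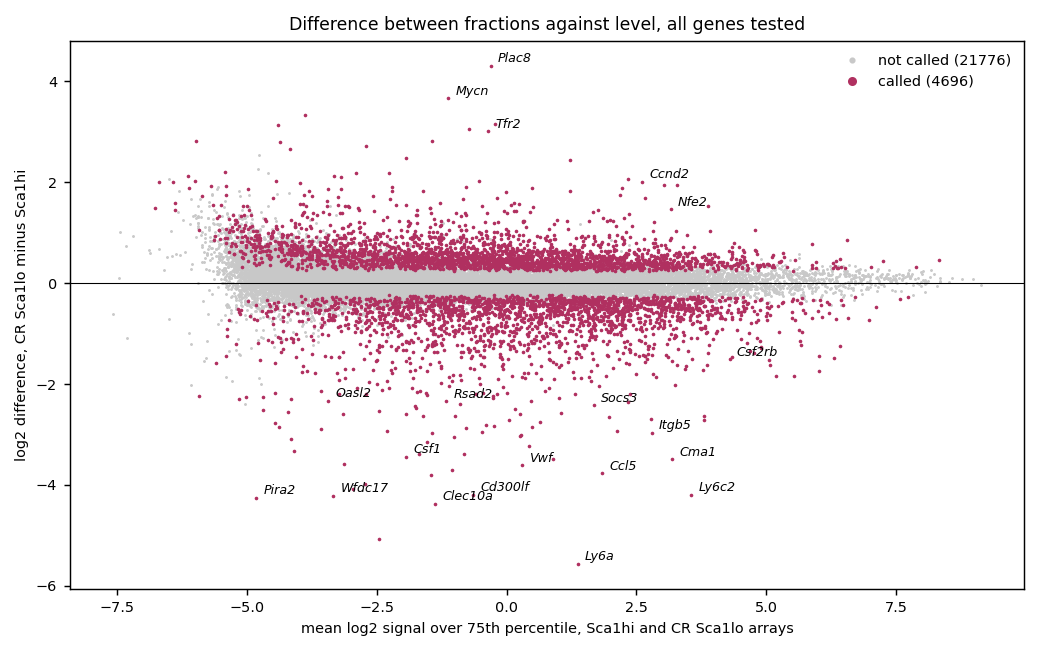
Each point is a gene, with its mean log2 level over the 6 arrays on the x axis and its log2 difference, CR Sca1lo minus Sca1hi, on the y axis; the 4696 called genes are red. Ly6a lies lowest of the labelled genes, at -5.56, and Plac8 highest, at 4.31.

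Ly6a itself checked the labels. Its level was 4.17, 4.18 and 4.10 on Sca1hi arrays 1 to 3 and -1.49, -1.43 and -1.32 on CR Sca1lo arrays 1 to 3. The fractions were far apart and each was tight. The difference of -5.56 ± 0.09, or 47.3-fold (adjusted p = 1.15e-05), was thus several times any spread between arrays. In EryCP cells the level was -2.25 ± 0.16 (SD, n = 3 arrays). Of the other genes whose proteins the study sorted on, Cd34 was at 6.83, 6.65 and 6.46 in Sca1hi and 6.27, 6.34 and 6.05 in CR Sca1lo. These values did not overlap, but the difference of -0.43 ± 0.15 was not called (adjusted p = 0.102), although a fit of the 6 arrays alone gave 0.0353. Kit, the receptor for stem cell factor, was at 5.16, 5.20 and 4.76 in Sca1hi and 4.66, 4.43 and 4.39 in CR Sca1lo. Its difference of -0.55 ± 0.12 was called (adjusted p = 0.0299) but lost the call without any 1 of the 6 arrays (adjusted p up to 0.124) and when slide was not fitted (0.237). Itgae, the CD103 chain used to sort other samples of the series, differed by 0.39 ± 0.12 and was not called (adjusted p = 0.0745).

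Ly6a belongs to a family of genes that encode similar anchored surface proteins, and the members did not all change. Ly6c2, a marker of monocytes and some T cells, was at 5.62, 5.73 and 5.61 in Sca1hi and at 1.41, 1.66 and 1.30 in CR Sca1lo. It fell by 4.19 ± 0.10, or 18.3-fold (adjusted p = 4.75e-05). Ly6i fell by 1.33 ± 0.14 (2.52-fold, adjusted p = 0.00206). Cd59a, whose product blocks the last step of complement lysis, rose by 0.76 ± 0.08 (1.7-fold, adjusted p = 0.00172, and 0.0806 with slide not fitted). Of the 20 family members tested 4 were lower, 1 was higher and 15 were not called, and their median of -0.03 lay close to that of all genes, 0.03. Ly6e, named after its values were seen, was at 4.19 ± 0.21 and 4.10 ± 0.18 (SD, n = 3 each) and did not pass the test (adjusted p = 0.415). Members of this family are similar in sequence, and how far their probes cross-hybridise was not tested.

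Plac8 and Mycn led the genes on the other side. Plac8, a cysteine-rich protein of myeloid and other cells, was at -2.15, -2.55 and -2.67 in Sca1hi and 2.11, 2.05 and 1.40 in CR Sca1lo. It rose by 4.31 ± 0.14, or 19.8-fold (adjusted p = 7.65e-05). Mycn, a member of the Myc family of growth-promoting transcription factors, was at -2.84, -2.92 and -3.11 in Sca1hi and 0.94, 0.83 and 0.35 in CR Sca1lo. Its rise was 3.66 ± 0.10 (12.7-fold, adjusted p = 6.21e-05) with the probe used. A rise was seen with both of its probes, but as the mean over them the difference was 2.56. For both genes the lowest CR Sca1lo array, array 3 on slide 2, faced the lowest Sca1hi array, which lay on the same slide. EryCP cells had similar levels, 2.00 ± 0.37 for Plac8 and 0.60 ± 0.29 for Mycn. In another set of arrays, which was not part of the fit and is not set against these, Plac8 lay at 2.92 ± 0.21 in EryCP cells measured again. It lay at -4.61 ± 0.30 (SD, n = 3 each) in Epo-differentiated cells of that set.

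**Figure D2:**
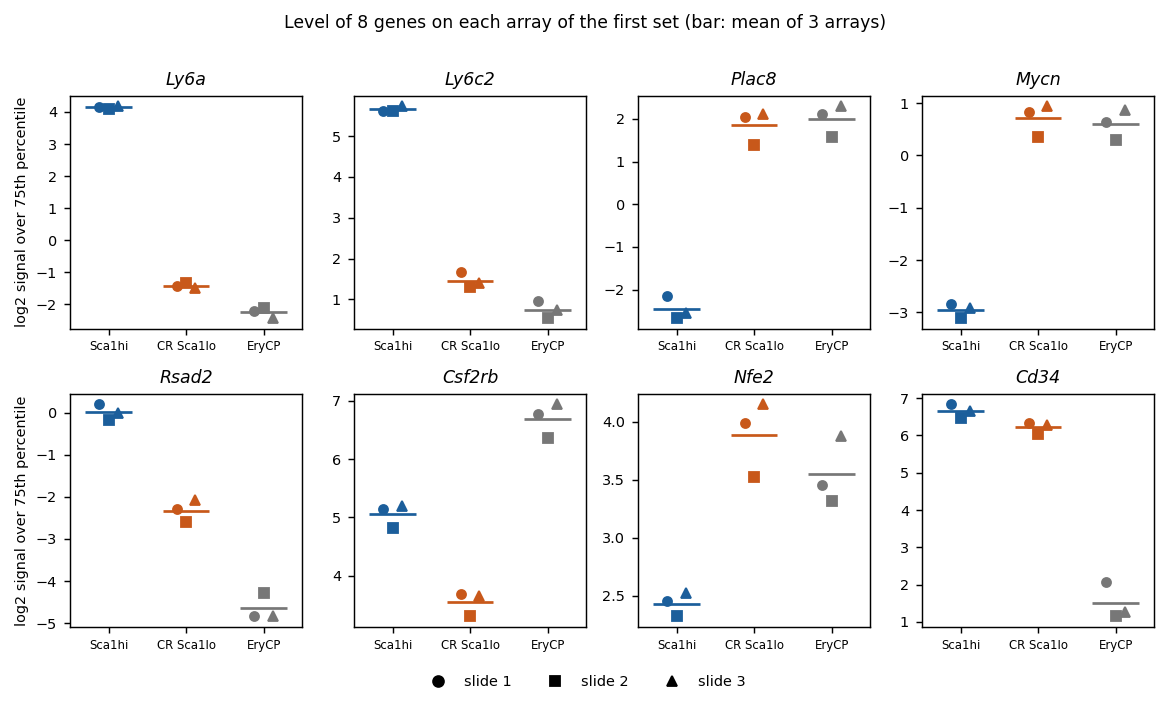
Levels of 8 genes on the 9 arrays of the first set, as log2 signal over the array's 75th percentile, with a bar at the mean of 3 arrays and a marker shape for each slide. Ly6a, Ly6c2, Rsad2 and Csf2rb are lower and Plac8, Mycn and Nfe2 higher in CR Sca1lo than in Sca1hi on every array, while Cd34 differs by 0.43.

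The 20 called genes with the largest differences in each direction ran from -5.56 to -3.14 and from 1.94 to 4.31. They were taken among genes with a symbol, the same sign on all slides and signal well above background on every array of the higher fraction. The next genes by this rule were Snx24 at -3.06 and Spns2 at 1.94. Clec10a, a lectin of macrophages and dendritic cells, was at 0.44, 1.06 and 0.93 in Sca1hi and at -3.53, -3.67 and -3.49 in CR Sca1lo, and it fell by 4.37 ± 0.28 (20.7-fold). The inhibitory receptor gene Cd300lf was at 1.53, 1.35 and 1.47 in Sca1hi and at -2.85, -2.79 and -2.58 in CR Sca1lo, a fall of 4.19 ± 0.10 (18.3-fold). Neither gene's groups came near each other with the probe used, but the Cd300lf difference was -2.52 as the mean over its probes. Wfdc17, a secreted protein of macrophages, fell by 4.22 ± 0.34 (18.7-fold). Its difference was -2.83 in the authors' deposited table, and leaving out slides in turn it lost the call once (adjusted p up to 0.0522). Pira2, an activating paired receptor, was at least 9.22-fold lower, since it was not well above background on any CR Sca1lo array. For such a bound the dim group is put, array by array, at the lowest signal of any probe well above background, unless its own probe read higher. The bound holds only under the background correction used here. In the authors' deposited table the Pira2 difference was -2.03, a smaller fall than the bound.

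Genes of secreted proteins and receptors were also among them. Csf1, the growth factor of macrophages, was at -0.35, -0.12 and -0.15 in Sca1hi and -3.80, -4.12 and -3.02 in CR Sca1lo, and it fell by 3.44 ± 0.21 (10.8-fold, adjusted p = 0.000278). Ccl5, a chemokine for T cells and monocytes, was at 3.70, 3.94 and 3.53 in Sca1hi and -0.19, 0.03 and 0.02 in CR Sca1lo (a fall of 3.77 ± 0.18, 13.7-fold). Il7r, the receptor chain for the lymphoid cytokine IL-7, fell by 3.59 ± 0.25 and was above background on 2 of the 3 CR Sca1lo arrays. The size of the Il7r difference depended on the probe: it was -2.06 as the mean over both probes, and -0.53 and not called (adjusted p = 0.35) with the probe that was above background on all 6 arrays. For Csf1 and Ccl5 every CR Sca1lo array lay below every Sca1hi array. Nrp1, a coreceptor for semaphorins and VEGF, fell by 4.09 ± 0.39 (17-fold). Its difference was -3.31 as the mean over its probes and -2.82 in the deposited table. Plau, the urokinase plasminogen activator, fell by 3.71 ± 0.17 (13.1-fold) and Entpd3, an ectonucleotidase, by 3.81 ± 0.15 (14.1-fold). Ctss, the lysosomal protease cathepsin S, fell by 3.39 ± 0.21 (10.5-fold) and Ccl3, a chemokine of macrophages, by 3.14 ± 0.14 (8.83-fold). Fam167a (-3.38 ± 0.17) and Tmem273 (-3.33 ± 0.49) were the other 2 of the 20 not described below.

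Of the 20 genes most raised in CR Sca1lo, some are known from red cells and their precursors. Tfr2, the second transferrin receptor, which also binds the Epo receptor, was at -1.76, -1.79 and -2.02 in Sca1hi and at 1.30, 1.36 and 0.79 in CR Sca1lo (a rise of 3.01 ± 0.11, 8.04-fold). The fractions did not overlap. Slc14a1, the urea transporter that carries the Kidd blood group in humans, rose by 1.94 ± 0.13 (3.84-fold). Others are growth regulators: Fgf3, a fibroblast growth factor, was at -1.38, -1.68 and -2.36 in Sca1hi and at 1.40, 1.52 and 1.12 in CR Sca1lo and rose by 3.15 ± 0.13 (8.89-fold). Ccnd2, cyclin D2 of the G1 phase, was at 1.79, 1.63 and 1.40 in Sca1hi and at 3.73, 3.74 and 3.37 in CR Sca1lo and rose by 2.01 ± 0.09 (4.02-fold, adjusted p = 0.000126, with all 3 of its probes). Angpt1, the ligand of the Tie2 receptor, rose by 2.47 ± 0.19 (5.54-fold), Igfbp4, which binds insulin-like growth factors, by 2.06 ± 0.13 (4.17-fold), and Trim16 by 3.06 ± 0.12 (8.36-fold). The others were Pdzph1 (2.81 ± 0.20), Lypd6b (2.71 ± 0.20), Pkd2l1 (2.65 ± 0.32), Vopp1 (2.44 ± 0.09), Mmp15 (2.11 ± 0.08), Ninl (1.99 ± 0.12) and Gimap5 (2.02 ± 0.35), and the call of Gimap5 was lost without Sca1hi array 1 or CR Sca1lo array 2 (adjusted p up to 0.0703). Among the dimmer genes of this group Hcfc2 was at least 2.94-fold higher under the background correction used here. Its call was lost without CR Sca1lo array 2 (adjusted p = 0.0527). Sizes of dim genes depended on the background correction. In the authors' deposited table, 8 of the 40 differences were smaller by over 1.5 times on the log2 scale, among them those of Mmp15 (1.37), Pkd2l1 (1.45), Ninl (1.03), Gimap5 (1.01), Hcfc2 (0.69), Pira2 (-2.03) and Tmem273 (-1.93). None of the 40 changed sign there.

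Levels in EryCP cells split these genes. Of the 20 most lowered in CR Sca1lo, 12 had an EryCP level more than 1 log2 unit above that of CR Sca1lo. Among them Cma1, the mast cell protease chymase, was at 4.90, 5.20 and 4.68 in Sca1hi, at 1.55, 1.78 and 1.00 in CR Sca1lo and at 8.63 ± 0.35 (SD, n = 3) in EryCP. CR Sca1lo thus had the lowest of the 3 levels. Vwf, the von Willebrand factor of platelets and endothelium, had its lowest level in CR Sca1lo too: it was at 1.88, 2.18 and 2.25 in Sca1hi, at -1.49, -1.95 and -1.07 in CR Sca1lo and at 1.84 ± 0.12 in EryCP. Of the 20 most raised genes, 17 were nearer in EryCP to their CR Sca1lo level than to their Sca1hi level. These levels share the arrays of the comparison above and were not tested.

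**Figure D3:**
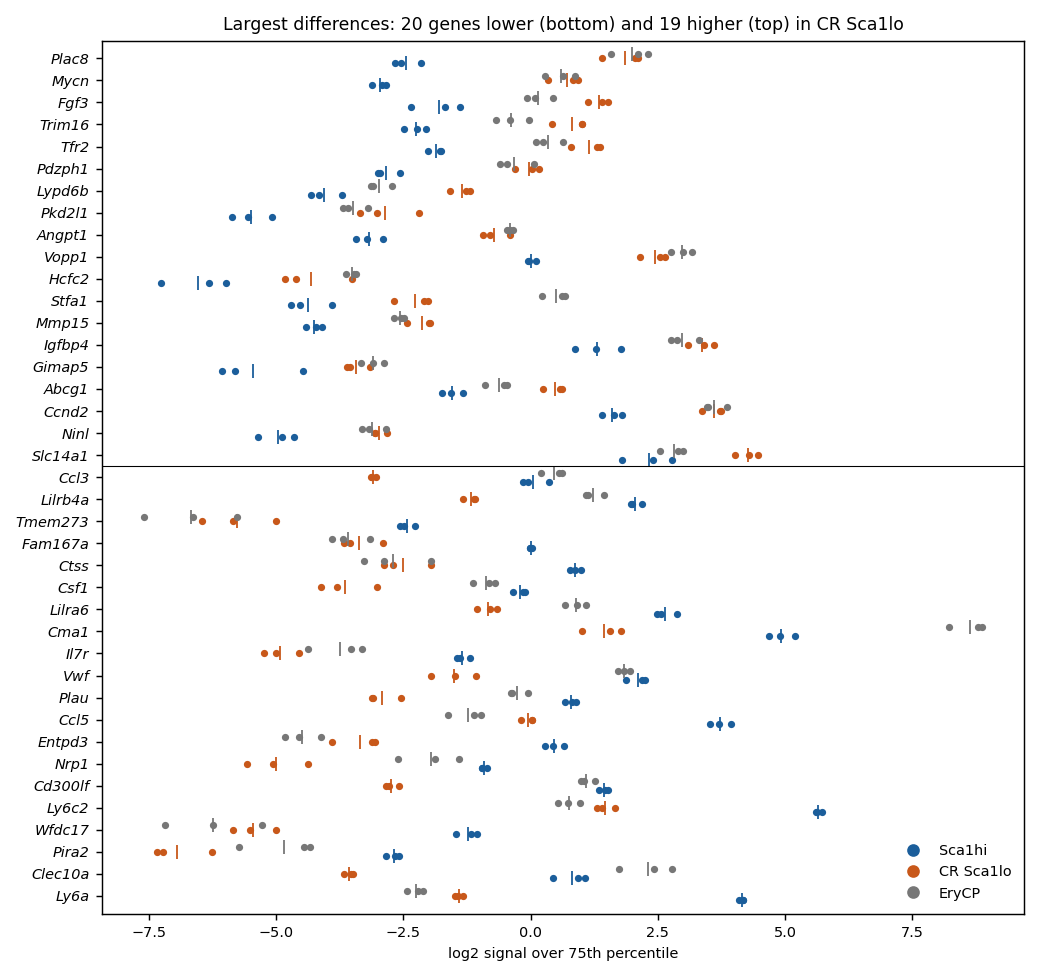
Levels of the 20 genes with the largest decrease and of 19 of the 20 with the largest increase in CR Sca1lo, under the filters of the text. Each gene has its own row, with a point for each array (log2 signal over the 75th percentile) and a bar at each fraction's mean. Among the decreased genes 12 of the EryCP means (grey) lie more than 1 unit above the CR Sca1lo means (orange).

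Genes of the interferon response were mostly lower in CR Sca1lo. Interferons bind surface receptors that activate Stat proteins such as Stat2, which join Irf9 and bind a DNA element called ISRE in the promoters of antiviral genes. Of 47 list members tested 28 were lower, 2 were higher and 17 were not called, against 8.1% lower among all genes, and the list median was -0.72, or -0.75, -0.80 and -0.68 within slides 1 to 3. Leaving out any 1 of the 6 arrays gave 26 to 29 lower and 0 or 1 higher. Without slides 1, 2 and 3, which leaves 2 arrays of each fraction, 7, 18 and 24 were lower, and 14 were lower and 0 higher when slide was not fitted.

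Rsad2, which encodes the antiviral enzyme viperin, was at 0.20, -0.01 and -0.16 in Sca1hi and at -2.08, -2.29 and -2.60 in CR Sca1lo, a fall of 2.34 ± 0.21 (5.05-fold, adjusted p = 0.00112). Oasl2, of the family that senses double-stranded RNA, was at -2.16, -2.27 and -2.36 in Sca1hi and at -4.37, -4.72 and -4.70 in CR Sca1lo, a fall of 2.33 ± 0.22 (5.03-fold, adjusted p = 0.00119). Both genes separated the fractions on every slide. Over all alternatives but normexp background their smallest differences were -1.40 for Rsad2 and -1.19 for Oasl2. Ifit3, a partner of proteins that bind viral RNA, fell by 2.30 ± 0.30 (4.92-fold) and Parp14, an ADP-ribosyltransferase, by 1.88 ± 0.07 (3.67-fold, in 1 of its 2 probes). The smallest Ifit3 difference over the same alternatives was -0.94. Leaving out slides in turn, Rsad2 and Ifit3 each lost the call once (adjusted p up to 0.056 and 0.0775). The transcription factors of the pathway also stood among the called members, which were named after their values were seen: Irf7 fell by 1.33 ± 0.15, Irf9 by 0.72 ± 0.09 (adjusted p = 0.0761 with slide not fitted) and Stat2 by 0.53 ± 0.07 (0.181). The 2 members that were higher, Slfn8 (0.48 ± 0.12) and Ifi47 (0.42 ± 0.10), likewise lost their calls there (0.354 and 0.281).

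The ISRE core, searched on both strands as GAAA followed by any 2 bases and a second GAAA, was found in the promoter windows of 20 of the 38 tested list members that have a window, or 52.6%, against 3.99% of all 27025 genes with one. The list holds genes chosen for their interferon response, so this share describes the list and not the difference between the fractions. The core was in 12 of 20 members that were called lower (60%) and in 8 of 18 that were not (44.4%). A window holds 250 bases before a RefSeq start site and 50 after it, in the assembly GRCm38.p6. The windows of 3 members are printed to show how the element is placed, 5′ to 3′ on the gene's strand, with the matched letters in capitals. Isg15, chosen after its values were seen for its overlapping matches, encodes a ubiquitin-like antiviral protein and fell by 1.15 ± 0.15 (2.22-fold, adjusted p = 0.00449, and 0.0567 with slide not fitted). The Rsad2 window lies on the minus strand at chr12:26456403-26456702, the Ifit3 window on the plus strand at chr19:34583279-34583578 and the Isg15 window on the minus strand at chr4:156200769-156201068.
Rsad2: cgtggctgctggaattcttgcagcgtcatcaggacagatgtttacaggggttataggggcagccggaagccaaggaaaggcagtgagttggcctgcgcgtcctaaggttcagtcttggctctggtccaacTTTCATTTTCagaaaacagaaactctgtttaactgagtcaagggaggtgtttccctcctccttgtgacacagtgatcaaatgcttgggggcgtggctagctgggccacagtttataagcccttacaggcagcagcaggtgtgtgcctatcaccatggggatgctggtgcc
Ifit3: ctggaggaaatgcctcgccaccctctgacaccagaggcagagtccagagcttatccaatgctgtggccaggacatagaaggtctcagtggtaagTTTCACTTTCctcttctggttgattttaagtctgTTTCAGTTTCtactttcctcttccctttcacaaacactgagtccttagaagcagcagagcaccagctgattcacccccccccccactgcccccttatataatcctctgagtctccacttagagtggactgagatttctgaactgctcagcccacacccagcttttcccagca
Isg15: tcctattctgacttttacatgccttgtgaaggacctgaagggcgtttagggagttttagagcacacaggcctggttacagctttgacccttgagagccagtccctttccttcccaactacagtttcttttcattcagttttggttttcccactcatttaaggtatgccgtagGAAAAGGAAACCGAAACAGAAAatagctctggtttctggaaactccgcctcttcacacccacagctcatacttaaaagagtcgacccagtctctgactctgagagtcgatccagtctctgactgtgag
In Rsad2 the match begins 120 bases before the start site, and in Ifit3 2 matches begin 156 and 122 bases before it, all on the opposite strand. Isg15 has 3 overlapping matches that begin 78, 72 and 66 bases before its start site on the gene's own strand. These matches describe letters in the windows and do not show that a factor binds there.

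Class I MHC genes, which present peptides from inside the cell and which interferons induce, were lower as well. Of 20 members tested 11 were lower, 1 was higher and 8 were not called, with a median of -0.45 (-0.51, -0.41 and -0.40 within slides). The lower count was 7 without Sca1hi array 1 or CR Sca1lo array 2, 3, 6 and 7 without slides 1 to 3, and 4 when slide was not fitted. H2-Q4, a nonclassical class I gene, was at 2.07, 2.05 and 2.17 in Sca1hi and at 0.94, 0.87 and 0.79 in CR Sca1lo and fell by 1.23 ± 0.07 (2.34-fold, adjusted p = 0.000263). H2-Q7 fell by 0.87 ± 0.08 (1.83-fold) and H2-T22 by 0.85 ± 0.08 (1.81-fold, adjusted p = 0.164 with slide not fitted). Class I genes are similar in sequence and their probes may share signal, which was not tested. Calr, the 1 member that was higher (0.33 ± 0.07, 0.678 with slide not fitted), encodes a chaperone of the endoplasmic reticulum. Of 11 class II genes tested 2 were lower, Ctss and H2-DMb1 (-0.77 ± 0.10, adjusted p = 0.00437), and 0 were higher. H2-DMb1 was called in 0 of the 3 fits without a slide (adjusted p up to 0.0725).

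Sensors of microbes and the NF-kB pathway followed the same direction, with 13 of 28 members lower, 0 higher and a median of -0.28. The lower count ran from 10 to 12 without any 1 array, was 4, 5 and 8 without slides 1 to 3, and was 7 when slide was not fitted. Nod1, a cytoplasmic sensor of bacterial cell walls, was at -1.48, -1.23 and -1.31 in Sca1hi and at -3.06, -3.37 and -3.39 in CR Sca1lo and fell by 1.94 ± 0.13 (3.83-fold). Cd180, a relative of Tlr4 best known from B cells, fell 2.82-fold (adjusted p = 0.000114) and Relb, an NF-kB subunit, by 1.22 ± 0.09 (2.34-fold).

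Cytokine receptors changed in both directions. Of 32 tested 16 were lower, 4 were higher and 12 were not called, with a median of -0.40 (-0.47, -0.38 and -0.42 within slides). Leaving out any 1 array gave 11 or 12 lower and 4 higher. Without slides 1 to 3 the lower count was 5, 11 and 10, and it was 8 when slide was not fitted. Csf2rb, the shared beta chain of the receptors for IL-3, IL-5 and GM-CSF, was at 5.14, 5.19 and 4.82 in Sca1hi and 3.65, 3.68 and 3.30 in CR Sca1lo. It fell by 1.51 ± 0.07 (2.84-fold, adjusted p = 0.000139, in 2 of its 3 probes). Csf2rb2, the IL-3 specific chain of the mouse, was at 4.82, 4.70 and 4.53 in Sca1hi and 3.00, 3.23 and 2.93 in CR Sca1lo and fell by 1.63 ± 0.09 (3.1-fold). Both chains were lower on every array of CR Sca1lo, and both had higher levels in EryCP, 6.70 ± 0.29 and 7.00 ± 0.12 (SD, n = 3 each). Ifngr2, a chain of the interferon gamma receptor, fell by 1.62 ± 0.10 (3.08-fold), and the Tgf-beta receptor genes Tgfbr1 and Tgfbr2 fell by 0.95 ± 0.08 and 0.81 ± 0.08.

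Among the receptors that rose, Csf3r, the receptor for G-CSF, was at -4.37, -4.29 and -4.13 in Sca1hi and at -2.69, -2.67 and -2.57 in CR Sca1lo and rose by 1.62 ± 0.21 (3.07-fold, adjusted p = 0.00429). The arrays of the fractions lay apart. Epor, the receptor for Epo, did not pass the test (-0.22 ± 0.10, adjusted p = 0.172), nor did Flt3, the receptor of lymphoid and myeloid progenitors, whose Sca1hi values ran from -2.42 to -0.53 (-0.37 ± 0.11, adjusted p = 0.073).

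Below the receptors, the Jak-Stat list had 7 of 20 members lower and 1 higher, but 3 or 4 lower and 0 higher without any 1 array and 2 lower when slide was not fitted. Socs3, a feedback inhibitor that Stat3 induces, was at 3.09, 2.90 and 2.71 in Sca1hi and 0.44, 0.56 and 0.41 in CR Sca1lo. It fell by 2.42 ± 0.08, or 5.37-fold (adjusted p = 7.65e-05). Sh2b3, the adaptor Lnk that restrains receptor signalling, fell by 0.69 ± 0.07 (1.61-fold) and the kinase gene Pim2 by 0.59 ± 0.08 (1.51-fold, adjusted p = 0.0817 with slide not fitted).

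Transcription factors of the myeloid lineages changed in both directions. Cebpa, which drives granulocyte and monocyte fate, was at -0.46, -0.63 and -0.57 in Sca1hi and at 0.31, 0.40 and 0.28 in CR Sca1lo, a rise of 0.88 ± 0.10 (1.84-fold, adjusted p = 0.00293). Its relatives went the other way: Cebpb, of activated macrophages, was at -0.62, -0.68 and -0.70 in Sca1hi and -2.33, -2.17 and -2.34 in CR Sca1lo and fell by 1.61 ± 0.08 (3.06-fold). Cebpd fell by 1.25 ± 0.12 (2.37-fold). Spi1, at -1.74, -1.71 and -1.78 in Sca1hi and -2.12, -2.31 and -2.22 in CR Sca1lo, fell by 0.47 ± 0.07 (1.39-fold, adjusted p = 0.0056, and 0.106 with slide not fitted). The groups did not overlap for these 4 genes. Klf6 fell by 1.31 ± 0.08 (2.49-fold) and Id2, an inhibitor of E proteins, by 0.97 ± 0.06 (1.96-fold). Of 28 myeloid transcription factors tested 5 were higher and 7 lower.

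Erythroid factors and red cell genes were mixed. Gata1 was at -1.62, -1.35 and -1.11 in Sca1hi and at -1.53, -1.94 and -1.45 in CR Sca1lo, and these overlapping values did not pass the test (-0.28 ± 0.14, adjusted p = 0.239). Klf1, the activator of adult globin genes, did not either (0.21 ± 0.18, adjusted p = 0.485), and its difference was -0.02 without Sca1hi array 2. Nfe2, a factor of platelet formation and globin control, was at 2.45, 2.52 and 2.32 in Sca1hi and at 4.15, 3.99 and 3.52 in CR Sca1lo and rose by 1.46 ± 0.11 (2.75-fold, adjusted p = 0.000548). Zfpm1, the Gata1 partner Fog1, rose by 0.57 ± 0.06 (1.49-fold, adjusted p = 0.268 with slide not fitted). Gata2, of early progenitors and mast cells, rose by 0.43 ± 0.07 (1.34-fold, adjusted p = 0.0101), a call lost without Sca1hi array 1 or 2 (adjusted p up to 0.0558) and with slide not fitted (0.354). Of 18 erythroid factors 6 were higher and 3 lower, with 3 higher without Sca1hi array 2 and 1 lower without CR Sca1lo array 2, and 1 was higher and 0 lower when slide was not fitted.

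Among 30 red cell genes tested 8 were higher and 1 was lower, beside 9.64% and 8.1% of all genes. Without Sca1hi array 2, CR Sca1lo array 2 or CR Sca1lo array 3 the higher count was 5, and without slides 1 to 3 it was 2, 4 and 5. It was 5 when slide was not fitted. Hbb-y, an embryonic beta-type globin, was at -0.72, -0.58 and -0.32 in Sca1hi and at 1.16, 1.06 and 0.85 in CR Sca1lo and rose by 1.56 ± 0.14 (2.95-fold, adjusted p = 0.00112). Gypc, the membrane protein glycophorin C, rose by 1.52 ± 0.21 (2.87-fold). Tfr2, described above, is also on this list. Alas2, the first enzyme of red cell haem synthesis, was named after its values were seen and did not pass the test (0.20, adjusted p = 0.596).

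Genes of megakaryocytes and platelets also changed both ways, 4 of 21 higher and 7 lower, with the lower count at 3 without CR Sca1lo array 2 and when slide was not fitted. Ppbp, a platelet chemokine, was at -0.06, -0.28 and -0.41 in Sca1hi and 1.18, 1.22 and 1.07 in CR Sca1lo and rose by 1.41 ± 0.07 (2.65-fold). Itgb3, the beta chain of the fibrinogen receptor, was at 3.75, 3.41 and 3.11 in Sca1hi and 1.84, 2.31 and 1.91 in CR Sca1lo and fell by 1.40 ± 0.10 (2.65-fold, adjusted p = 0.000407). With its other probe, also called lower, the difference was only -0.28. Among stem and progenitor genes 6 of 31 were higher and 6 lower, with 5 higher and 2 or 3 lower without any 1 array. Gfi1, a repressor needed for neutrophil and stem cell identity, was at -0.54, -0.36 and -0.46 in Sca1hi and at -2.04 and -2.08 on CR Sca1lo arrays 2 and 3, its spot on array 1 being left out because the scanner software marked it as uneven or an outlier. It fell by 1.64 ± 0.13 (3.12-fold, adjusted p = 0.00146, fitted without that array). Ikzf2, the Ikaros family factor Helios, rose by 1.42 ± 0.09 (2.68-fold, with all 4 of its probes).

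Of 35 genes of monocytes, macrophages and dendritic cells tested 15 were lower, 2 were higher and 18 were not called, at a median of -0.30. The lower count was 12 to 15 without any 1 array, 5, 9 and 9 without slides 1 to 3, and 6 when slide was not fitted. The summed linear level of the list lay between 170 and 189 in Sca1hi and between 104 and 137 in CR Sca1lo, in units of the 75th percentile. Mrc1, the macrophage mannose receptor, was not above background on any of the 6 arrays, while 33 of the 35 members tested were above it on all 6. Plac8, the largest rise of all, belongs to the same list. In bulk RNA fewer cells of a type and less RNA per cell cannot be told apart, and the part of such cells in the differences was not tested.

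Paired and lectin-like receptors, which send activating or inhibitory signals in myeloid and NK cells, had 16 of 33 members lower and 2 higher, with a median of -0.36 and a summed level of 101 to 116 in Sca1hi against 44.9 to 53 in CR Sca1lo. Without any 1 array 12 to 14 were lower and 0 or 1 higher, without slides 1 to 3 it was 9, 10 and 12, and when slide was not fitted 11 were lower and 0 higher. Lilrb4a, an inhibitory receptor, was at 1.99, 2.18 and 1.97 in Sca1hi and at -1.09, -1.33 and -1.12 in CR Sca1lo and fell by 3.23 ± 0.13 (9.38-fold). Cd300c2 fell by 2.75 ± 0.14 (6.74-fold). Lilra6, a paired receptor gene that is not on the list and stands among the 20 largest decreases, fell by 3.48 ± 0.12 (11.2-fold). Paralogs in these clusters are near-identical in part, and how their probes share signal was not tested.

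Mast cell, basophil and eosinophil genes split, 6 of 31 higher and 9 lower, with 4 lower without Sca1hi array 2, CR Sca1lo array 2 or CR Sca1lo array 3, and 5 when slide was not fitted. Their summed level overlapped, 356 to 537 in Sca1hi and 377 to 514 in CR Sca1lo. Mcpt2, a mast cell protease, was at -1.10, -0.18 and -0.65 in Sca1hi and at -3.24, -3.21 and -3.25 in CR Sca1lo and fell by 2.59 ± 0.20 (6.03-fold). The cytokine gene Il4 was at 2.71, 2.70 and 2.40 in Sca1hi and 0.72, 0.73 and 0.50 in CR Sca1lo and fell by 1.95 ± 0.08 (3.87-fold, adjusted p = 8.43e-05). The granzyme gene Gzmc went the other way and rose by 1.90 ± 0.07 (3.73-fold). Neutrophil granule genes were higher in 5 of 22 cases and lower in 3, with 2 higher without CR Sca1lo array 2 and 3 without Sca1hi array 1 or 2. Ms4a3, expressed in granulocyte and monocyte progenitors, was at 1.63, 1.25 and 0.98 in Sca1hi and 3.28, 3.23 and 2.99 in CR Sca1lo and rose by 1.88 ± 0.12 (3.68-fold). Stfa1, a cysteine protease inhibitor of myeloid cells, rose by 2.12 ± 0.28 (4.33-fold). S100a8, a subunit of the neutrophil protein calprotectin, was at least 2.48-fold higher under the background correction used here, a call lost without CR Sca1lo array 2 (adjusted p = 0.0627). It was above background on 0 Sca1hi and 2 CR Sca1lo arrays, so it passed the filter only through EryCP. In the 6 arrays alone it was not tested. Over all alternatives but normexp background its difference ran from 0.54 to 3.44.

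**Figure D4:**
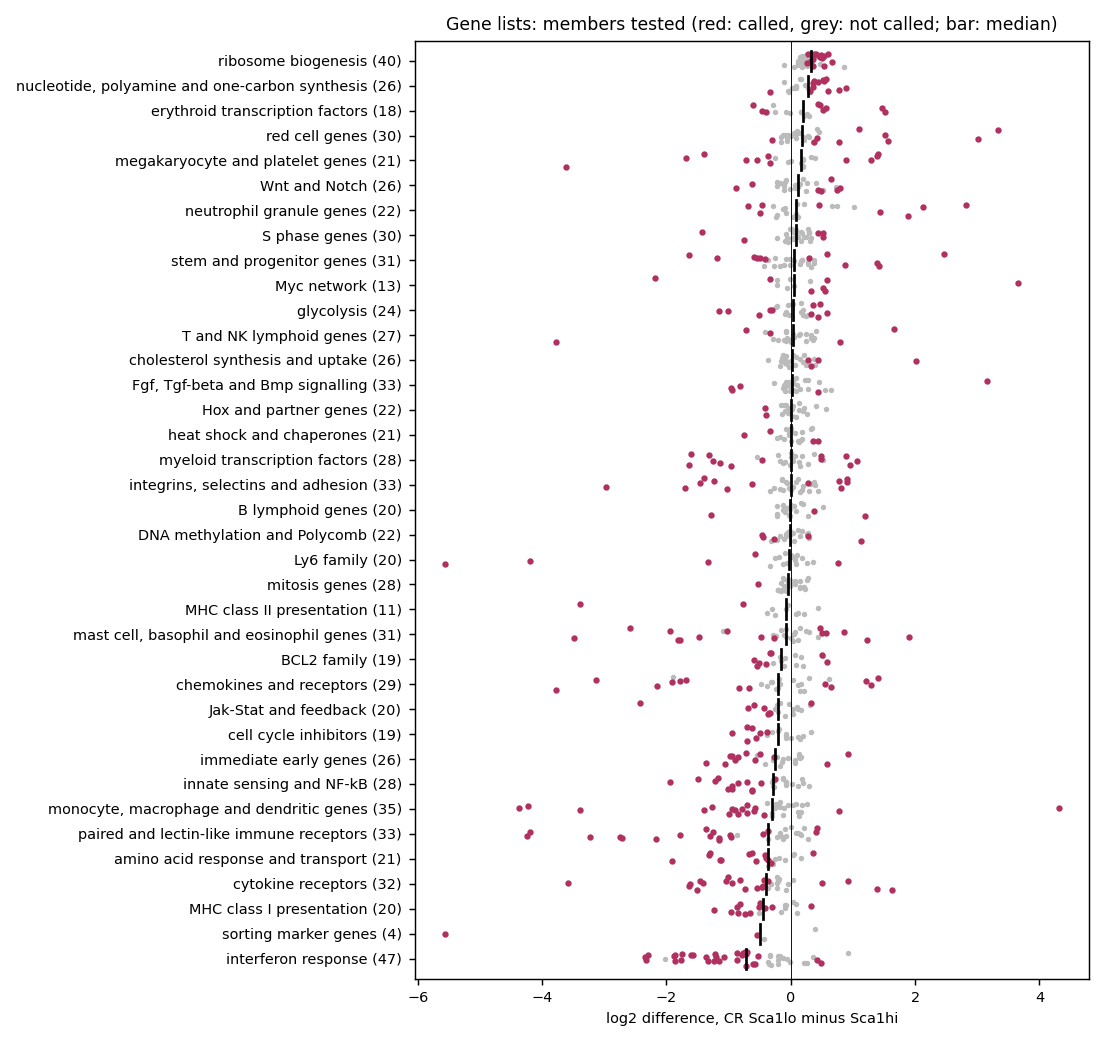
Each row is a gene list with the number of members tested in brackets, each point a member's log2 difference, CR Sca1lo minus Sca1hi (red where called), and each bar the list median. The interferon response has the lowest list median, -0.72, and ribosome biogenesis the highest, 0.33.

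Genes of ribosome biogenesis, the process that makes ribosomal RNA and assembles it with protein, shifted upward by small amounts. Of 40 members tested 17 were higher, 0 were lower and 23 were not called, against 9.64% higher among all genes, with a median of 0.33 (0.24, 0.33 and 0.28 within slides). The count changed with the arrays used: without any 1 array 2 to 9 were higher, without slides 1 to 3 it was 0, 1 and 2, in the 6 arrays alone 8, with spike-in scaling 2, and 0 when slide was not fitted, while the median stayed between 0.27 and 0.38 in all alternatives but normexp background (0.16). Dkc1, the pseudouridine synthase dyskerin, was at 0.01, -0.34 and -0.26 in Sca1hi and 0.44, 0.58 and 0.36 in CR Sca1lo and rose by 0.66 ± 0.09 (1.58-fold, adjusted p = 0.00438, and 0.0995 with slide not fitted). Polr1b, a subunit of RNA polymerase I, rose by 0.54 ± 0.07 (1.45-fold, 0.235 with slide not fitted). The E-box CACGTG, to which Myc proteins can bind, was found in the promoter windows of 7 of 34 members (20.6%) against 8.09% of all genes with a window, in 3 of 13 that were called higher and 4 of 21 that were not.

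Enzymes that make nucleotides, polyamines and one-carbon units moved alike, 11 of 26 higher and 1 lower, with a median of 0.28. The higher count was 3 to 7 without any 1 array, 1, 1 and 4 without slides 1 to 3, and 1 when slide was not fitted. Sms, spermine synthase, was at 2.47, 2.22 and 1.93 in Sca1hi and 3.15, 3.15 and 2.97 in CR Sca1lo and rose by 0.88 ± 0.09 (1.85-fold, adjusted p = 0.00136). Pfas, of purine synthesis, rose by 0.77 ± 0.10 (1.7-fold, 0.211 with slide not fitted). In the Myc network 5 of 13 genes were higher and 2 lower, with 3 or 4 higher and 1 lower without any 1 array, and 1 of each when slide was not fitted. Beside Mycn, Myc was at 1.78, 1.81 and 1.34 in Sca1hi and 2.41, 2.26 and 2.05 in CR Sca1lo and rose by 0.59 ± 0.07 (1.51-fold, adjusted p = 0.00345, and 0.211 with slide not fitted). Mxd1, which competes with Myc for its partner Max, was at 2.43, 2.58 and 2.22 in Sca1hi and 0.31, 0.43 and -0.06 in CR Sca1lo and fell by 2.19 ± 0.09 (4.55-fold, adjusted p = 8.49e-05).

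The amino acid response, in which Atf4 induces transporters and stress genes when amino acids run short, was lower: 12 of 21 members fell and 1 rose, with a median of -0.37 (-0.33, -0.44 and -0.43 within slides). The lower count was 8 to 11 without any 1 array, 4, 5 and 6 without slides 1 to 3, and 5 when slide was not fitted. Nupr1, a stress-induced chromatin protein, was at 1.59, 1.72 and 1.54 in Sca1hi and -0.39, -0.27 and -0.23 in CR Sca1lo and fell by 1.91 ± 0.10 (3.76-fold). Trib3, a pseudokinase that Atf4 and Ddit3 induce, was at 2.97, 3.09 and 3.01 in Sca1hi and 1.61, 1.83 and 1.70 in CR Sca1lo and fell by 1.32 ± 0.11 (2.49-fold). Both genes were lower on every CR Sca1lo array. Slc7a11, the cystine transporter, fell by 1.30 ± 0.11 (2.47-fold) and Chac1, which degrades glutathione, by 1.14 ± 0.09 (2.21-fold).

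**Figure D5:**
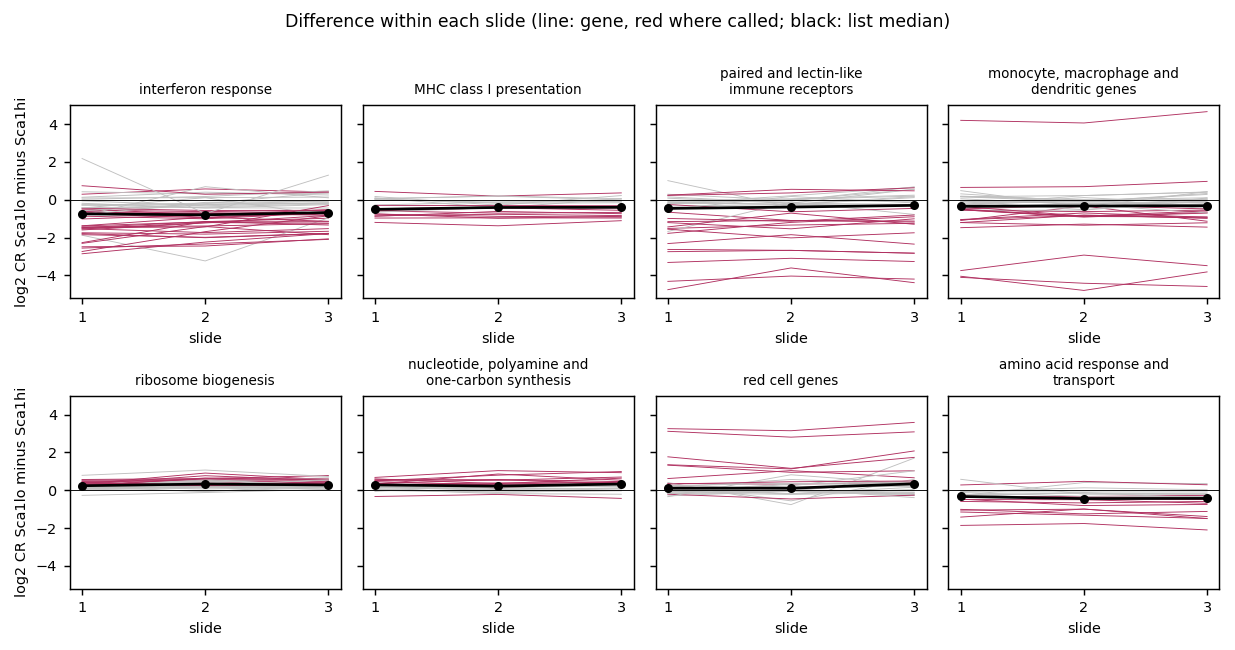
Log2 difference, CR Sca1lo minus Sca1hi, within each of the 3 slides for the members of 8 lists; each thin line joins the values of 1 gene (red where called) and the black line joins the list medians. The medians lie below 0 on every slide for 5 of the lists and above 0 for ribosome biogenesis, nucleotide and polyamine synthesis and red cell genes.

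Genes of mitosis and S phase were called in 3.57% and 16.7% of cases, against 17.7% of all genes. Of 28 mitosis genes 1 was lower, Foxm1 (-0.52 ± 0.08, lost without Sca1hi array 2, adjusted p = 0.0502, and 0.123 with slide not fitted), and 0 were higher. Of 30 S phase genes 3 were higher and 2 lower, with 1 higher without CR Sca1lo array 2. E2f2, an activator of S phase genes, was at 2.71, 2.67 and 2.53 in Sca1hi and 1.19, 1.32 and 1.11 in CR Sca1lo and fell by 1.43 ± 0.08 (2.7-fold, adjusted p = 0.000194). Cyclin E1, encoded by Ccne1, fell by 0.75 ± 0.07 (1.68-fold). Inhibitors of the cycle, of which 36.8% were called, were lower in 7 of 19 cases and higher in 0, or lower in 6 or 7 without any 1 array, in 0, 4 and 3 without slides 1 to 3 and in 1 when slide was not fitted. Cdkn1a, the p53 target p21, was at 2.60, 2.69 and 1.99 in Sca1hi and 1.80, 1.38 and 1.27 in CR Sca1lo and fell by 0.94 ± 0.12 (1.92-fold, 0.0991 with slide not fitted), and Rb1, the retinoblastoma gene, by 0.70 ± 0.06 (1.62-fold, 0.0635).

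Immediate early genes, which respond to outside signals within minutes, were lower in 10 of 26 cases and higher in 2, with a median of -0.25. Without Sca1hi array 1 or 3 or CR Sca1lo array 2 the lower count was 6, without slides 1 to 3 it was 1, 2 and 8, and it was 4 when slide was not fitted. Their summed level lay between 198 and 261 in Sca1hi and between 147 and 191 in CR Sca1lo. Phlda1 fell by 1.36 ± 0.11 (2.57-fold), Ier5 by 1.06 ± 0.09 (2.08-fold) and Rgs2, a brake on G protein signals, by 0.98 ± 0.13 (1.97-fold). Heat shock genes were higher in 2 and lower in 2 of 21 cases (0 or 1 higher and 1 or 2 lower without any 1 array). The 19% called lay close to the 17.7% of all genes. Hspa1a, the inducible Hsp70, was called lower (-0.76 ± 0.11) although its levels overlapped and ran from -4.55 to -2.84 in Sca1hi, and its adjusted p was 0.863 with slide not fitted.

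Adhesion molecules and chemokines held some of the larger differences. Itgb5, an integrin chain that binds vitronectin, was at 4.14, 4.34 and 4.36 in Sca1hi and at 1.26, 1.42 and 1.25 in CR Sca1lo and fell by 2.97 ± 0.11, or 7.84-fold (adjusted p = 8.36e-05). Cd93, a lectin-like protein of early progenitors, was at 4.16, 4.37 and 4.35 in Sca1hi and 2.78, 2.67 and 2.31 in CR Sca1lo and fell by 1.71 ± 0.13 (3.27-fold). Every array of CR Sca1lo lay below every array of Sca1hi for both. Cd44, the hyaluronan receptor, fell by 1.46 ± 0.10 (2.76-fold, in 2 of its 3 probes). Of 33 adhesion genes 5 were higher and 7 lower, with 1 to 4 higher without any 1 array. Of 29 chemokines and their receptors 5 were higher and 8 lower, with 3 higher without CR Sca1lo array 1. Ccl2, which draws monocytes, fell by 2.15 ± 0.24 (4.43-fold).

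Lymphoid genes were called at about the rate of all genes (17.7%), 15% in the B list and 18.5% in the T and NK list. In the B list 2 of 20 were higher and 1 was lower, with 1 higher without Sca1hi array 1 or 2 or CR Sca1lo array 2, and in the T and NK list 2 of 27 were higher and 3 lower. Vpreb1, part of the surrogate light chain of early B cells, was at -2.43, -2.56 and -2.39 in Sca1hi and -1.05, -1.24 and -1.53 in CR Sca1lo and rose by 1.19 ± 0.14 (2.27-fold, adjusted p = 0.00277). Lck, the kinase of T cell receptor signalling, was at -3.21, -3.25 and -2.74 in Sca1hi and -1.34, -1.35 and -1.54 in CR Sca1lo and rose by 1.66 ± 0.15 (3.15-fold). Foxo1, needed for B cell commitment, fell by 1.29 ± 0.08 (2.44-fold) and Gata3, of T cells, by 0.72 ± 0.06 (1.64-fold). Summed levels were 32.2 to 38.5 in Sca1hi and 34.7 to 45.2 in CR Sca1lo for the B list, and 37.3 to 43.6 and 22.3 to 25.9 for the T and NK list, which holds Ccl5.

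The remaining lists had between 9.09% and 42.1% of their members called, against 17.7% of all genes, and leaving out 1 array lowered several of the counts, as given in brackets. Of 22 Hox and partner genes 0 were higher and 2 lower (0 to 2 lower without 1 array). Of 26 Wnt and Notch genes 5 were higher and 2 lower (2 to 4 higher), with Fzd2, a Wnt receptor, up by 0.75 ± 0.07 (adjusted p = 0.06 with slide not fitted) and the Notch target Hey1 down by 0.88 ± 0.07 (-1.72, -1.74 and -1.67 against -2.55, -2.68 and -2.55). Of 22 genes of DNA methylation and Polycomb 2 were higher and 3 lower (1 higher and 0 or 1 lower), and the DNA methyltransferase gene Dnmt3b rose by 1.13 ± 0.10 (2.2-fold, from 1.95, 1.55 and 1.12 to 2.66, 2.88 and 2.49). In the BCL2 family 2 of 19 were higher and 6 lower (1 to 3 lower), with the proapoptotic Bcl2l11 down by 0.60 ± 0.07 (0.108 with slide not fitted). Glycolysis had 5 of 24 higher and 5 lower (1 to 3 and 2 to 3), and the phosphofructokinase gene Pfkp fell by 1.15 ± 0.07 (2.22-fold). Cholesterol genes had 4 of 26 higher and 0 lower (1 higher), led by the sterol exporter Abcg1, which rose by 2.02 ± 0.08 (4.07-fold). Of 33 genes of Fgf, Tgf-beta and Bmp signalling 2 were higher, Fgf3 among them, and 3 lower (1 and 3). When slide was not fitted, 0 were higher and 0 lower in the Hox list and in the BCL2 family. The higher and lower counts were then 0 and 1 for Wnt and Notch, 0 and 2 for glycolysis and 1 and 3 for Fgf, Tgf-beta and Bmp. They were 1 and 0 for DNA methylation and Polycomb and for cholesterol genes.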

How the data were processed

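Total RNA (150 ng a sample) was labelled with Cy3 and hybridised to 1-colour Agilent arrays, per the labels' protocols. The deposited files hold spot intensities that Agilent Feature Extraction 10.1.1.1 background-subtracted for each array, per the file headers, not normalised between arrays. The authors' deposited value table, on a log2 scale by its range, served only as an alternative; the sources used here do not say how it was centred or normalised. For the log2 levels, the 75th percentile of each array was subtracted, uneven or outlying spots were dropped and repeated spots of 1 probe averaged. Probes were kept if at least 0.5 of their spots were well above background on every array of 1 fraction, and a gene is its brightest kept probe. Of 41174 probes 27063 had a gene symbol, and unnamed probes were counted singly.

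The 9 arrays of the first set (Sca1hi, CR Sca1lo and EryCP) were fitted with limma 3.58.1 in R 4.3.3, with slide as a fixed block and 4 residual degrees of freedom. Slide comes from the file headers, and the scan time did not differ within a slide, so the 2 cannot be told apart. Deviations from the fraction means correlated between arrays of the same slide at 0.196 to 0.866 and between slides at -0.807 to 0.067. On slide 3 the correlations were only 0.196 to 0.341. Deviations cancel over the arrays of a fraction, which by itself lowers the correlations between slides, so these values do not test the pairing. The number of arrays limits the precision. The fits were tested on simulated data.

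Genes named are the 4 marker genes and the 20 largest called differences in each direction, under the filters given above. Up to 4 called members of each list and 15 genes chosen by name were added. Any other is said to be chosen later. The members and the gene lists were chosen with earlier results of these data known. Promoter windows come from RefSeq, GRCm38.p6. Some genes that the rule names are not reported here, though they stay in the counts.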

Additional observations from a re-analysis of the deposited data

How the results depend on the processing

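The number of called genes and the size of differences of dim genes depended on how slide and background were treated. Against 4696 calls with slide as a fixed block, the fit without the replicate block gave 950, the 6 arrays alone 3041 and spike-in scaling, on 9 probes, 1780. Normexp background gave 0 calls with limma, with 325 genes at an unadjusted p under 0.05, and it turned the sign of Hcfc2 (-0.08) and S100a8 (-0.18) among the 155 called named genes and of 3 of the 7 that were not called, Klf1 (-0.12) and Flt3 (0.06) among them. When the local background of 39 spots, above 10 times the array's median, was replaced, an alternative chosen after seeing the data, normexp gave 5063 calls. The log2 difference was smaller by over 1.5 times for 82 of the 155 with normexp, 26 with its outlying background replaced, 16 with the mean over probes and 15 in the deposited table. For the dim genes Mmp15 and Ninl it was 0.42 and 0.18 with normexp and 1.16 and 0.84 with the outlying background replaced. Leaving out 1 array or 1 slide gave 573 to 3133. The fits with quantile normalisation (5001), slide as a random block (5456), no filter on dim probes (3492), a stricter filter (4892), the mean over a gene's probes (4727), the deposited value table (5702) and trended, robust variances (5938) stayed within 1.5 times the main count. Of the 155 named genes that were called, 105 kept the call without the block, 134 with the 6 arrays alone, 113 with spike-in scaling and 154 with the deposited table. Signal near background limits the dimmest genes, of which 8.37% were called against 28.1% of the brightest.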
